A study of Homo sapiens with 16 samples.

Results

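H1, a long-established line of human embryonic stem cells, was held for 24 h in plain E7 medium (E8 lacking TGFb) or in E7 to which the ligand NODAL had been added at 100 ng/mL. The comparison covers the 2 libraries with NODAL and the 2 libraries in plain E7, so 4 of the 16 libraries in the series, none of them exposed to the glucose analog 2-deoxyglucose (2DG). Every gene that passed a filter on low values was compared, which was 16714 of the 17738 in the deposited table. All cells were wild type and had been grown in E8, whose supplements include insulin, FGF2 and TGFb, before the change of medium. The other groups used here were E7 with Activin A at 100 ng/mL, E7 with TGFb at 1.74 ng/mL, E7 with 2DG at 3 mM, and E7 with NODAL and 2DG at the same doses, each with 2 libraries. Polyadenylated RNA was read from both ends on an Illumina instrument. Nothing states that the replicates were separate cultures, so the p-values measure only the spread between these samples.

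NODAL is a secreted ligand of the TGFb superfamily. It binds activin receptors together with the co-receptor TDGF1 (Cripto), and the receptors phosphorylate SMAD2 and SMAD3, which enter the nucleus with SMAD4 and act on DNA with partners such as FOXH1. Targets of the pathway include its own inhibitors LEFTY1 and LEFTY2 and, at higher signal, the genes of the mesendoderm. In human pluripotent cells the same pathway helps to keep the undifferentiated state.

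The cells carried the marks of their line. All 12 embryonic stem cell markers examined, POU5F1, SOX2 and NANOG among them, had normalised read counts between 2013 and 48152 in every one of the 4 libraries. Recovered reads numbered 17407357 and 16606411 in the E7 libraries and 14600479 and 16236270 in the NODAL libraries. The E7 replicates differed from each other by transcript length: the log2 difference of replicate 2 from replicate 1 had a rank correlation of -0.38 with length across genes, against 0.24 for the NODAL replicates and 0.52 for those with Activin A, which stood furthest apart. No p is given, since genes do not stand in for replicates. The response to NODAL itself had a rank correlation of 0.24 with length, and 0.03 once the length trend of each library was subtracted. Results that move with these libraries are given with and without them. Few markers of other cells were measured. Of 10 fibroblast markers 6 were, and their summed count was 1085 to 1225 in E7 and 1403 to 1450 with NODAL. Trophoblast markers (3 of 12) summed to 609 to 650 in E7 and 733 to 736 with NODAL, neural crest markers (3 of 8) to 2229 to 2386 and 2553 to 2816, and endoderm markers (2 of 9) to 19.3 to 24.9 and 48.1 to 49.6. Endothelial and blood markers (2 of 10, TEK and KDR) summed to 1642 and 1324.5 in E7 and 1778 and 1911 with NODAL. TAL1, of the endothelial and blood list, is in the table but did not pass the filter on low values. The other remaining members, DCN, CGA, SOX10 and SOX17 among them, are not in the table, which lists only genes with at least 1 read in every library. Replication-dependent histone transcripts without poly(A) tails, 8 of 12 measured, summed to 432 and 548 in E7 and 327 and 284 with NODAL. The part of these differences in the results was not tested.

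NODAL raised 1780 genes and lowered 1821, which is 10.6% and 10.9% of those tested and 21.5% together, at an adjusted p under 0.05 in limma with Benjamini-Hochberg adjustment. The median log2 fold change over all genes was 0.01. Among changes of at least 1 on the log2 scale, 409 were increases and 107 were decreases. In every one of the 1780 and 1821 called genes the libraries of the 2 groups did not overlap. Over all genes this held for 33.4% with NODAL above and 32.9% with NODAL below. Separate groups therefore add no support to a call. The size of the response rested on few libraries: without E7 replicate 2 limma called 829 genes (4.96% of those tested, 2.69% higher and 2.27% lower). It called 2829 without E7 replicate 1 (9.09% higher and 7.84% lower), 1542 without NODAL replicate 1 and 874 without NODAL replicate 2. It called 5675 or 5678 without Activin A replicate 1 or 2, and 6479 without all 4 Activin A libraries (38.8%, of which 19.3% higher and 19.5% lower). On recovered reads, edgeR called 11.2% of genes higher and 9.8% lower. In all 16 fits that each left out 1 library, 342 of the genes that rose (19.2%) and 304 of those that fell (16.7%) were called again. The balance of directions depended on the scaling. Libraries scaled to the same total gave 2676 increases and 916 decreases, with the median of all genes moved to 0.13, and subtracting the length trend gave 1764 increases (10.8% of genes with a length) and 3052 decreases (18.7%). With genes split by transcript length into 4 equal sets, in the shortest set 2.72% of genes rose and 12.4% fell, and in the longest set 17.8% rose and 6.02% fell.

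**Figure D1:**
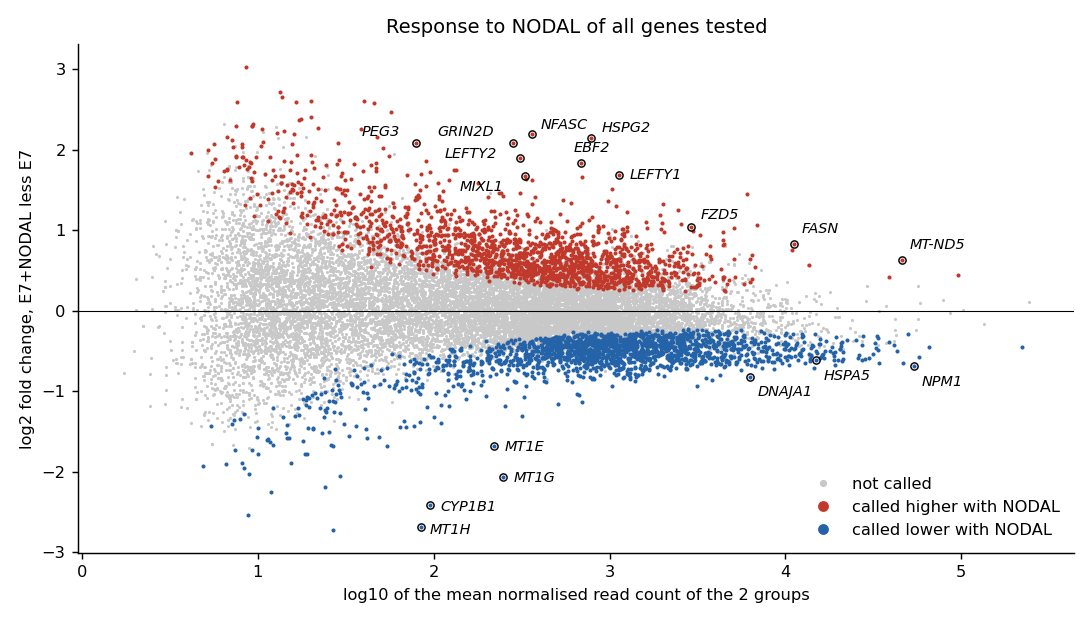
Log2 fold change with NODAL against the log10 mean normalised read count for the 16714 genes tested, with genes called higher in red, called lower in blue and not called in grey. The Nodal targets LEFTY1, LEFTY2 and MIXL1 stand well above the cloud, the metallothionein genes and CYP1B1 well below it, and the abundant chaperone and nucleolar genes HSPA5, DNAJA1 and NPM1 fell by less.

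The inhibitors that Nodal signalling induces against itself rose most clearly within the pathway. LEFTY1, a secreted antagonist of NODAL, had 463 and 613 normalised reads in E7 and 1749 and 1691 with NODAL. The NODAL libraries lay above both E7 libraries, and the log2 fold change was 1.69 ± 0.26 (SE, adjusted p = 0.00129). Its neighbour LEFTY2, with the same function, went from 148 and 114 to 535 and 442, a log2 fold change of 1.90 ± 0.35 (adjusted p = 0.00326). Both genes lie on the minus strand of chromosome 1 (hg38), LEFTY1 at chr1:225886282-225911382 and LEFTY2 at chr1:225936598-225941489, and are near-identical, so the split of reads between them depends on how shared reads were assigned. LDLRAD4 and PMEPA1 encode membrane proteins that hold SMAD2 and SMAD3 away from the receptor. LDLRAD4 had 68.0 and 51.8 reads in E7 and 185 and 186 with NODAL (log2 fold change 1.63 ± 0.22, adjusted p = 0.000799). PMEPA1 had 719 and 716 against 1174 and 1220 (0.74 ± 0.10, adjusted p = 0.000842). The calls of all 4 inhibitors held without any one library.

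Of the 16 feedback inhibitors measured, 6 rose (37.5%) and 1 fell (6.25%), against 10.6% and 10.9% of all genes. The list median was 0.25 against 0.01 over all genes. With libraries scaled to equal totals 10 rose and the list median was 0.37. That scaling also moved the median of all genes to 0.13 and their increases from 1780 to 2676. With TMM factors or quantile normalization 6 of the list rose. The other members that rose as reported were SMURF1, a ubiquitin ligase for SMADs and receptors (0.48 ± 0.15), and SKI, a SMAD co-repressor (0.40 ± 0.13). FST, the activin-binding follistatin, fell by 0.56, from 168 and 149 reads to 111 and 103. All 3 calls were lost both without E7 replicate 2 and without NODAL replicate 2, and over the fits that left out 1 library the adjusted p reached 0.289 for SMURF1, 0.261 for SKI and 0.153 for FST. SMAD7, the inhibitory SMAD, was not called, at 998 and 1078 reads in E7 and 1088 and 1068 with NODAL, and neither was the co-repressor SKIL. CER1, another secreted antagonist, is not in the table.

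Genes for the ligand and its reception moved less. NODAL itself had 765 and 825 reads in E7 and 1106 and 1093 with the ligand added, a log2 fold change of 0.47 ± 0.18 that missed the threshold (adjusted p = 0.0805). Its libraries did not overlap between groups, as held for 33.4% of all genes with NODAL above and 32.9% with NODAL below. The length-subtracted fit called it (0.53, adjusted p = 0.0095). TDGF1, the co-receptor, was abundant at 11530 and 12257 reads in E7 and fell by 0.33 to 9621 and 9296 (adjusted p = 0.0377), a call that held in 6 of the 16 fits that left out 1 library. FURIN, a protease that cleaves pro-NODAL, rose from 849 and 723 to 1129 and 1163 (0.55 ± 0.10, adjusted p = 0.00319). Of the 14 receptors, SMADs and partners, 1 rose (7.14%, against 10.6% of all genes) and none fell. That gene was SMAD3, with 977 and 765 reads in E7 and 1280 and 1312 with NODAL (0.58 ± 0.14, adjusted p = 0.0122). Without E7 replicate 2 the calls of FURIN (adjusted p = 0.052) and SMAD3 were lost, SMAD3 with an adjusted p of up to 0.147. ACVR2B, a type II receptor, had a log2 fold change of 0.48 with an adjusted p of 0.0501, and FOXH1, the DNA-binding partner of the SMADs, one of 0.32 with an adjusted p of 0.13.

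**Figure D2:**
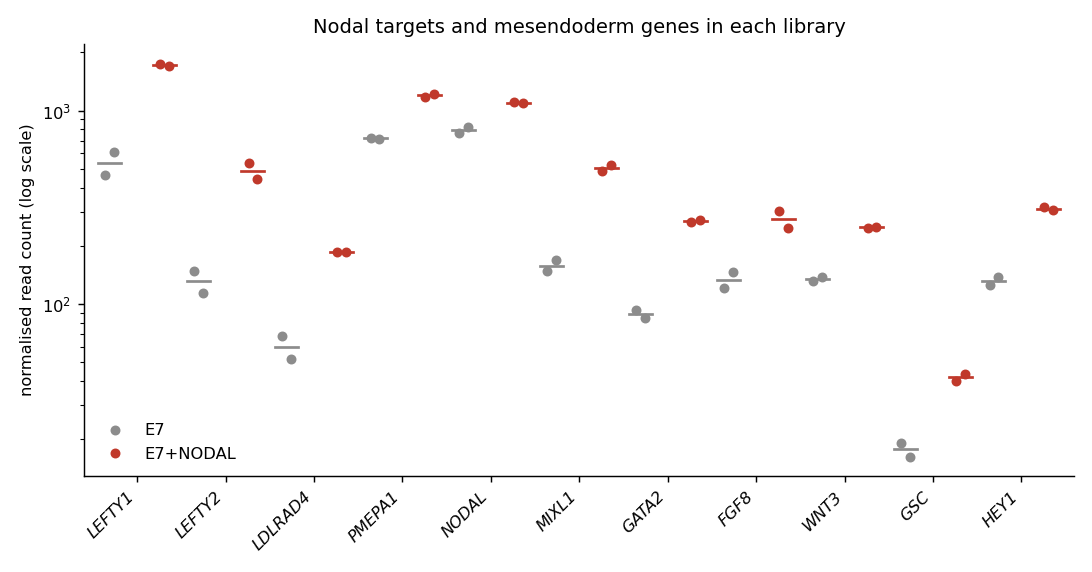
Normalised read count on a log axis in each of the 2 E7 libraries (grey) and 2 E7+NODAL libraries (red), with lines at the group means, for Nodal pathway, mesendoderm and related genes. In each of the 11 genes both NODAL libraries lie above both E7 libraries, as in every gene called higher and in 33.4% of all genes. The change of NODAL itself was not called.

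Several mesendoderm genes rose from low levels. Of 14 measured, 4 rose (28.6%) and 1 fell (7.14%), against 10.6% and 10.9% of all genes. The list had 9 positive values and 5 negative ones, down to -0.97, and its median was 0.54. That median was 0.34 without E7 replicate 2 and 0.39 under quantile normalization, where 3 rose. MIXL1, a homeobox gene of the primitive streak, had 147 and 168 reads in E7 and 486 and 522 with NODAL (1.67 ± 0.21, adjusted p = 0.00049). FGF8 went from 121 and 146 to 302 and 248 (1.04 ± 0.20, adjusted p = 0.00423), and WNT3, a ligand needed to form the streak, from 132 and 138 to 248 and 249 (0.88 ± 0.14, adjusted p = 0.00149). In all 3 the call held without any one library. GSC, the organizer gene goosecoid, rose from 19.1 and 16.2 to 40.1 and 43.3 (1.20 ± 0.37, adjusted p = 0.0331), but its call was lost without any of the 4 libraries compared, with an adjusted p of up to 0.178. EOMES, a T-box factor of the definitive endoderm, stayed near the floor of the filter at 10.5 and 8.1 against 15.8 and 12.3 and was not called (0.54, adjusted p = 0.357). OTX2, a head and epiblast homeobox gene also on this list, fell by 0.49, from 224 and 211 to 152 and 157 (adjusted p = 0.016, up to 0.0875 with 1 of the 4 libraries left out). Genes for SOX17 and GATA6, which mark endoderm, are not in the table.

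The 250 bases before the RefSeq start of MIXL1 (GRCh38.p14, chr1:226223414-226223663, plus strand) are shown because the gene had the largest rise on the mesendoderm list and its upstream sequence holds motifs of the Nodal effectors. Capitals mark a match to the FOXH1 core AATNNACA and one to the SMAD letters CAGAC, both read on the minus strand in this window.
MIXL1: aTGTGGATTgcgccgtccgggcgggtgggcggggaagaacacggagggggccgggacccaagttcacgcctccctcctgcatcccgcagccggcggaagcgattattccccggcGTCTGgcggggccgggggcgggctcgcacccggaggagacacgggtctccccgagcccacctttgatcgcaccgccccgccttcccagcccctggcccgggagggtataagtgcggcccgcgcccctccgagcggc
Searched on both strands, AATNNACA occurred in 4.91% of the 11105 tested genes with such a window, in 4.46% of the 1279 with a rise and in 5.27% of the 1404 with a fall. CAGAC occurred in 35.9%, 36.2% and 36.0% of these. For each motif the 3 shares lay within 1 percentage point of each other. On the mesendoderm list 2 of 8 windows held AATNNACA (25.0%), those of MIXL1, which rose, and OTX2, which fell, and 5 of 8 held CAGAC (62.5%). A match describes the letters only.

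Of 11 genes linked to BMP signals, 3 rose (27.3%) and none fell, against 10.6% and 10.9% of all genes. The list had 6 positive values, up to 1.59, and 5 negative values, down to -0.74. The list median was 0.19, against 0.05 under quantile normalization and 0.008 without E7 replicate 1. Without the Activin A libraries 3 rose and 3 fell. GATA2, a zinc-finger gene of the BMP target list, rose from 92.9 and 84.2 reads to 264 and 273 (1.59 ± 0.17, adjusted p = 0.000209). BMP7, a ligand, rose from 676 and 711 to 959 and 973 (0.48 ± 0.09, adjusted p = 0.00352). SMAD6, an inhibitor of BMP signals, rose from 164 and 162 to 273 and 273 (0.74 ± 0.19, adjusted p = 0.0139). Of the 3, the call of SMAD6 alone was lost with 1 library left out, with an adjusted p of up to 0.0875 without E7 replicate 2 or either NODAL library.

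Among 13 neuroectoderm genes, 2 fell and 1 rose, which is 15.4% and 7.69%, near the shares of 10.9% and 10.6% over all genes. NEUROG3, a proneural helix-loop-helix gene, fell from 124 and 131 reads to 56.0 and 53.7 (-1.20 ± 0.20, adjusted p = 0.00164) and was called without any one library. SOX21 fell from 339 and 320 to 172 and 213 (-0.78 ± 0.17, adjusted p = 0.00756), with an adjusted p of 0.0755 without NODAL replicate 1. ZIC1 rose by 0.29 (adjusted p = 0.0445), and its call held in 4 of 16 fits. SOX3 was not called, at 311 and 324 against 303 and 235.

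Core pluripotency genes stayed high, with modest decreases in some. Of 21, 6 fell (28.6%) and 1 rose (4.76%), against 10.9% and 10.6% of all genes. The median of the 21 was -0.08, against 0.05 at equal totals and 0.04 under quantile normalization, which gave 3 decreases. POU5F1 had 42332 and 48152 reads in E7 and 41802 and 35023 with NODAL, and NANOG 5112 and 5499 against 4920 and 4748, and neither was called (adjusted p of 0.288 and 0.401). L1TD1, an RNA-binding protein of pluripotent cells, fell from 24466 and 23342 to 15623 and 15797 (-0.61 ± 0.10, adjusted p = 0.00167). ZFP42 (REX1) fell from 4882 and 5205 to 3764 and 3712 (-0.43 ± 0.08, adjusted p = 0.00276). Both calls held without any one library. PRDM14 fell by 0.50 and LIN28A by 0.40, with adjusted p of up to 0.075 and 0.0806 when 1 library of the contrast was left out. SOX2 fell by 0.25 (adjusted p = 0.0473), and that call held in 4 of 16 fits. TERT, the telomerase catalytic subunit, rose from 144 and 129 to 231 and 218 (0.72 ± 0.14, adjusted p = 0.004, and 0.0525 without E7 replicate 2). In bulk RNA, fewer cells of a type and less RNA per cell cannot be told apart.

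Some genes of the Wnt, FGF, Notch and retinoid pathways changed, beside 10.6% of all genes that rose and 10.9% that fell. FZD5, a Wnt receptor, rose from 1973 and 1828 reads to 3750 and 4098 (1.05 ± 0.11, adjusted p = 0.000167). It had the largest of 4 increases (28.6%) among 14 genes of the Wnt list, which had 1 decrease (7.14%). PHLDA1 rose from 332 and 350 to 528 and 515 (0.61 ± 0.11, adjusted p = 0.00244). It was among 7 of 21 genes of the FGF and ERK list that rose (33.3%), with none falling. The others included the receptors FGFR1 (0.42 ± 0.09) and FGFR4 (0.47 ± 0.13) and the feedback inhibitors SPRY1 (0.50 ± 0.10) and SPRED2 (0.49 ± 0.15). Without E7 replicate 2, and likewise without NODAL replicate 2, 1 of these 7 was called, PHLDA1. Over the fits that left out 1 library the adjusted p reached 0.0618 for SPRY1, 0.105 for FGFR1, 0.113 for FGFR4 and 0.251 for SPRED2. HEY1, a Notch and BMP target, rose from 125 and 137 to 316 and 305 (1.24 ± 0.37, adjusted p = 0.0312). Of 14 Notch genes 4 rose (28.6%), NOTCH1 (0.66 ± 0.19) and NOTCH3 (0.68 ± 0.15) included, and none fell. None of HEY1, NOTCH1 and NOTCH3 was called without E7 replicate 2 or without NODAL replicate 2, and their adjusted p reached 0.134, 0.225 and 0.0988. Of 16 retinoid genes 3 fell (18.8%) and 1 rose (6.25%). The deepest fall was in DHRS3, which reduces retinal, from 119 and 106 to 57.0 and 29.2 (-1.43 ± 0.42, adjusted p = 0.0284). Its call did not hold with every library left out in turn. The transcription factor MYCL rose from 314 and 311 to 477 and 517 (0.67 ± 0.13, adjusted p = 0.0035), while MYC and MYCN were not called (-0.25 and -0.28).

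Metallothioneins, small cysteine-rich proteins that bind zinc and copper, gave some of the deepest decreases among genes with a higher group mean of at least 100 reads. MT1H had 133 and 159 reads in E7 and 25.4 and 18.8 with NODAL, a log2 fold change of -2.68 ± 0.27 (adjusted p = 0.000155). MT1G fell from 358 and 445 to 84.5 and 106 (-2.06 ± 0.17, adjusted p = 5.15e-05) and MT1E from 264 and 406 to 119 and 86.7 (-1.68 ± 0.20, adjusted p = 0.000443). In each of the 3 the NODAL libraries lay far below both E7 libraries, and the calls held without any one library. Of 13 genes for metallothioneins and zinc handling, 8 fell (61.5%) and none rose, against 10.9% and 10.6% of all genes. The list median was -0.82. MT1X fell by 1.30, MT1F by 0.89 and MT2A by 0.73. SLC30A1, the zinc exporter at the cell surface, fell from 1180 and 1223 to 756 and 765 (-0.66 ± 0.13, adjusted p = 0.00393), and SLC39A6, a zinc importer, by 0.41. Without E7 replicate 2, 4 of the 8 were called, and without NODAL replicate 2, 5 were. The lost calls had adjusted p of up to 0.103 for MT1X, 0.0651 for MT1F, 0.301 for MT2A and 0.0638 for SLC39A6. The MT1 genes are close copies of each other in a cluster on chromosome 16, so reads may have been split among them.

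Metallothionein genes are switched on through metal response elements, searched here as TGCNCNC on both strands, which the zinc sensor MTF1 binds. Windows before the RefSeq starts of MT1H (GRCh38.p14, chr16:56669564-56669813, plus strand) and MT2A (chr16:56608334-56608583, plus strand) are shown to set the member with the deepest fall beside one with a shallower fall. Capitals mark each match on either strand.
MT1H: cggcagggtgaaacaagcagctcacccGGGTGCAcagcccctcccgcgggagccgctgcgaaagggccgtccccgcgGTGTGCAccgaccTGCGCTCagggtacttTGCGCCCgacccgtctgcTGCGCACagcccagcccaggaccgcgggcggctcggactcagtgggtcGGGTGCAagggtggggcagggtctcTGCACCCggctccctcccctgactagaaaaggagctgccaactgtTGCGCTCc
MT2A: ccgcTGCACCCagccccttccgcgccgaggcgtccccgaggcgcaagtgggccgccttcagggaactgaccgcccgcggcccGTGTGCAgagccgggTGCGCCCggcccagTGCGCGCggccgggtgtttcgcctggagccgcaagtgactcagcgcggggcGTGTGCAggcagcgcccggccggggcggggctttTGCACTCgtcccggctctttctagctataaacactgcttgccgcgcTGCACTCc
MT1H held 8 matches and MT2A 7. At least 1 match occurred in 56.6% of all windows, but at least 4 in 2.04% of them, in 1.78% of the windows of genes that fell and in 3 of the 7 windows found for the metallothionein and zinc list. With a near-equal number of matches, MT1H and MT2A fell by 2.68 and 0.73.

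CYP1B1, a cytochrome P450 of the aryl hydrocarbon receptor battery, fell as far as the metallothioneins. It had 169 and 152 reads in E7 and 23.2 and 36.8 with NODAL (-2.41 ± 0.21, adjusted p = 5.15e-05), and its call held without any one library. NQO1, another gene of that battery, fell from 1417 and 1663 to 1058 and 984 (-0.59 ± 0.15, adjusted p = 0.0155). AHRR, the repressor of the same receptor, rose at low counts from 9.6 and 11.2 to 24.3 and 32.0 (1.35 ± 0.28, adjusted p = 0.00524). Without NODAL replicate 2 the call of AHRR was lost (adjusted p = 0.069), as was that of NQO1, which was also lost without E7 replicate 2 or NODAL replicate 1 (adjusted p of up to 0.145).

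A broad set of growth and protein-folding genes fell by less than 1 on the log2 scale. Of 29 genes that assemble ribosomes, 21 fell (72.4%) and none rose, against 10.9% and 10.6% of all genes. The list median was -0.47. NPM1, the nucleolar chaperone nucleophosmin, fell from 63459 and 70417 reads to 43147 and 39815 (-0.69 ± 0.12, adjusted p = 0.00276). NOP16 fell from 998 and 1067 to 581 and 572 (-0.84 ± 0.14, adjusted p = 0.00216), LYAR from 1463 and 1690 to 970 and 912 (-0.74 ± 0.11, adjusted p = 0.00115), and RRS1 and GNL3 by 0.73 and 0.66. All 5 held without any one library. The list had 13 calls without E7 replicate 2, 13 without E7 replicate 1 and 12 without either NODAL library. It had 24 with the length trend subtracted, 12 at equal totals and 13 under quantile normalization. Over all genes, decreases numbered 1821 as reported, 3052 with the length trend subtracted, 916 at equal totals and 1533 under quantile normalization. The 58 cytosolic ribosomal protein genes gave 34 decreases and no increase (median -0.51), but 0 calls in limma without E7 replicate 2 and 0 without NODAL replicate 2. The 34 decreases were 58.6% of the list, against 10.9% of all genes. Transcripts of the 58 genes had a median length of 1864.5 bases against 3342.5 over all genes. Among them 49 decreases were called after the length trend was subtracted, 12 at equal totals and 4 under quantile normalization (median -0.22). Of 21 S-phase genes 8 fell and none rose, with 1 called without E7 replicate 2 and 1 without either NODAL library in turn. The 8 decreases were 38.1% of the S-phase list, against 10.9% of all genes. At equal totals 2 fell and 1 rose, under quantile normalization 1 fell, and with TMM factors 5 fell.

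Chaperones fell in both the cytosol and the endoplasmic reticulum. Of 14 heat shock genes, 8 fell and none rose, and 6 were called without E7 replicate 2 and 5 without NODAL replicate 2. The 8 decreases were 57.1% of the list, against 10.9% of all genes. Under quantile normalization 4 of the 14 fell. DNAJA1, a co-chaperone of HSP70, fell from 7837 and 8317 reads to 4597 and 4580 (-0.82 ± 0.09, adjusted p = 0.000326). HSPA8, the constitutive HSP70, fell from 55969 and 57842 to 36656 and 35834 (-0.65 ± 0.11, adjusted p = 0.00157), the mitochondrial chaperonin HSPD1 by 0.65 and HSP90AA1 by 0.58. These 4 were called without any one library. HSPA5 (BiP), the main chaperone of the endoplasmic reticulum, fell from 17642 and 18451 to 11765 and 11802 (-0.61 ± 0.09, adjusted p = 0.00108). It was 1 of 10 decreases (45.5%) among 22 genes of the unfolded protein response, with 1 increase (4.55%), SYVN1 (0.38 ± 0.11). Over all genes 10.9% fell and 10.6% rose. DNAJB11 fell by 0.68 and DNAJB9 by 0.64, and both, like HSPA5, were called without any one library, while XBP1 fell by 0.54 and HERPUD1 by 0.58. The list had 3 decreases called without E7 replicate 2, 3 without NODAL replicate 2 and 6 without NODAL replicate 1. It had 6 at equal totals and, under quantile normalization, 5 with no increase (median -0.10). The calls of XBP1, HERPUD1 and SYVN1 were among those lost with a library left out (adjusted p of up to 0.0815, 0.159 and 0.158).

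Some genes of this response carry the ER stress element, searched as CCAAT and CCACG with any 9 bases between them. The window before the RefSeq start of HSPA5 (GRCh38.p14, chr9:125241344-125241593, minus strand) is shown as the best known example. Capitals mark the single full match.
HSPA5: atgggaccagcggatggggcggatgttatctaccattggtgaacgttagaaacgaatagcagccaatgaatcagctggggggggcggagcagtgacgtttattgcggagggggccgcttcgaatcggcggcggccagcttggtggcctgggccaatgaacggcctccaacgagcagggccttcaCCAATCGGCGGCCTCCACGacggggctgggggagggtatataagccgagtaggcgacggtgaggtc
The element, searched on both strands, occurred in 14 of the 11105 windows (0.126%). Genes that fell held 7 of the 14, which is 0.499% of their 1404 windows, and genes that rose held 1, which is 0.0782% of their 1279. On the unfolded protein response list 6 of 21 windows held it (28.6%): HSPA5, HSP90B1, CALR, CANX, XBP1 and CRELD2. Here too a match describes the letters only.

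**Figure D3:**
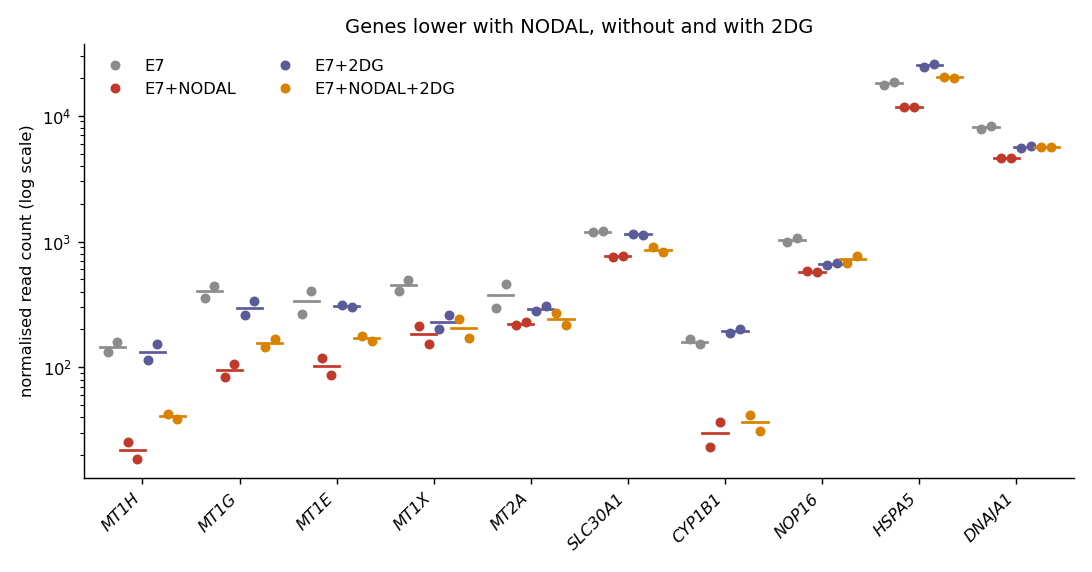
Normalised read count on a log axis in each library (points) with group means (lines) for 10 genes called lower with NODAL, in E7, E7+NODAL, E7+2DG and E7+NODAL+2DG. MT1H and CYP1B1 are separated by NODAL both without and with 2DG, whereas NOP16 and DNAJA1 lie lower with NODAL only in the pair without 2DG.

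Nuclear genes of oxidative phosphorylation gave 16 decreases (39%) and no increase among 41 (median -0.45), against 10.9% and 10.6% of all genes. The decreases were led by UQCRB of complex III, from 3629 and 4134 reads to 2583 and 2244 (-0.69 ± 0.16, adjusted p = 0.0101). Limma called 0 of the 41 without E7 replicate 2 and 0 without NODAL replicate 2. At equal totals 3 fell and 1 rose, and under quantile normalization 6 fell. Transcripts of the mitochondrial genome went the other way: 3 of 13 rose and none fell, with MT-ND5 at 43296 and 30058 reads in E7 and 54953 and 56571 with NODAL (0.63 ± 0.14, adjusted p = 0.00747), again with none called without E7 replicate 2 and 8 called under quantile normalization. The 3 increases were 23.1% of the 13 transcripts, against 10.6% of all genes. Mitochondrial reads were 5.66% and 5.53% of the total in E7 and 6.62% and 6.69% with NODAL. SLC16A1, the lactate and pyruvate transporter MCT1, fell from 12444 and 13260 to 8140 and 8044 (-0.67 ± 0.08, adjusted p = 0.000357) in every fit that left out 1 library. SLC16A3, the lactate exporter MCT4, rose from 93.8 and 104 to 249 and 188 (1.13 ± 0.25, adjusted p = 0.00828, and up to 0.0787 with 1 library left out). Of 21 glycolysis genes, these transporters included, 4 rose (19%) and 3 fell (14.3%), against 10.6% and 10.9% of all genes. Among 19 factors of translation initiation and elongation, 9 fell (47.4%) and 1 rose (5.26%), against 10.9% and 10.6% of all genes. Under quantile normalization 4 of these factors fell. EEF1A1, which brings aminoacyl-tRNA to the ribosome, fell from 244810 and 266191 to 193933 and 180437 (-0.45 ± 0.12, adjusted p = 0.0203), and EEF2, which moves the ribosome along, rose from 34847 and 31203 to 44484 and 44067 (0.43 ± 0.10, adjusted p = 0.0119). Both calls were lost without E7 replicate 2 or either NODAL library (adjusted p of up to 0.157 and 0.128). FASN, the fatty acid synthase, rose from 8825 and 7413 to 13754 and 15003 (0.83 ± 0.15, adjusted p = 0.00286).

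**Figure D4:**
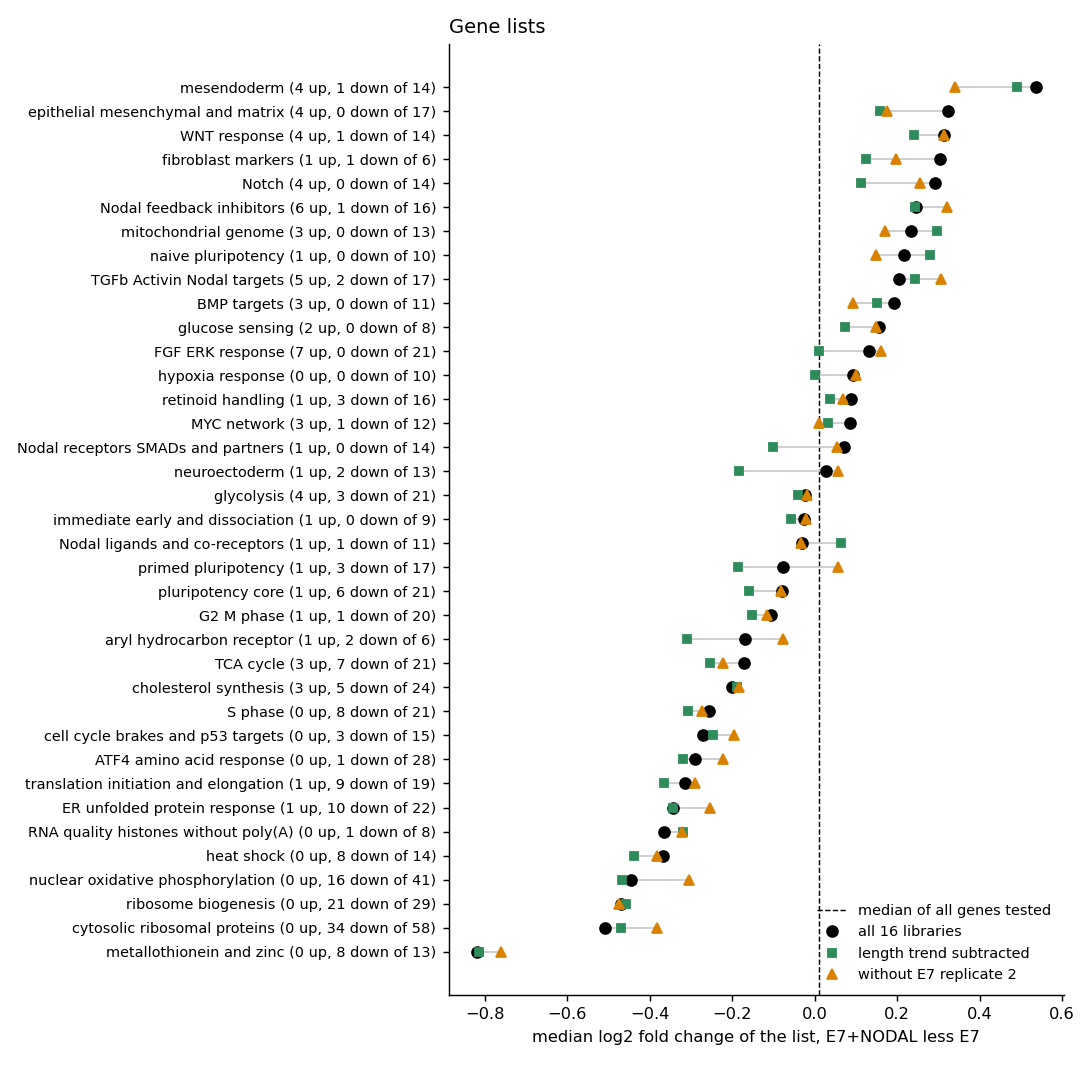
Median log2 fold change with NODAL of each gene list with at least 5 genes tested (black circles), with the length trend subtracted (green squares) and without E7 replicate 2 (orange triangles); labels give how many members were called higher or lower, and the dashed line is the median of all genes, 0.01. The metallothionein and zinc list lies lowest, at -0.82, and mesendoderm highest, at 0.54, with all 3 symbols of each on the same side of the line.

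Of 17 epithelial, mesenchymal and matrix genes 4 rose (23.5%, against 10.6% of all genes) and none fell, with 6 negative values, down to -0.61. Their transcripts had a median length of 4996 bases against 3342.5 over all genes. With the length trend subtracted 5 rose and 3 fell, and the list median went from 0.32 to 0.16. Without the 4 Activin A libraries 9 rose and 4 fell. ITGA5, the fibronectin receptor subunit, rose from 212 and 156 reads to 335 and 377 (0.96 ± 0.16, adjusted p = 0.00202), SPARC, a matrix protein, from 4453 and 4429 to 6021 and 5859 (0.42 ± 0.07, adjusted p = 0.00241), and COL4A2, a basement membrane collagen, by 0.64 ± 0.13 (adjusted p = 0.00493). The call of COL4A2 was lost without E7 replicate 2 or NODAL replicate 2 (up to 0.0775).

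The largest increases among genes with a higher group mean of at least 100 reads began with NFASC. NFASC, the adhesion protein neurofascin, rose from 154 and 108 reads to 563 and 625 (2.19 ± 0.23, adjusted p = 0.000167). GRIN2D, an NMDA receptor subunit, rose from 108 and 106 to 462 and 450 (2.08 ± 0.19, adjusted p = 9.25e-05), and PEG3, a paternally expressed imprinted zinc-finger gene, from 30.6 and 28.4 to 132 and 125 (2.09 ± 0.24, adjusted p = 0.000343). EBF2, a helix-loop-helix factor, rose from 323 and 278 to 1028 and 1127 (1.84 ± 0.17, adjusted p = 9.25e-05), and MMP9, a gelatinase, from 53.6 and 69.0 to 210 and 204 (1.75 ± 0.35, adjusted p = 0.00424). In each the groups were far apart. HSPG2, which encodes the basement membrane protein perlecan, rose from 399 and 202 to 1182 and 1349 (2.15 ± 0.38, adjusted p = 0.00271), with E7 replicates that stood far apart. FAM20A, a regulator of secretory kinases, rose by 1.72 ± 0.18, NELL1 by 1.70 ± 0.29 and the transcripts LINC01002 and AC110079.1 by 1.75 and 1.87. At the other end, GDPD2 fell from 159 and 161 to 60.2 and 60.3 (-1.40 ± 0.17, adjusted p = 0.000379), LINC-ROR, a long non-coding RNA of reprogrammed cells, from 127 and 116 to 46.5 and 45.2 (-1.39 ± 0.24, adjusted p = 0.00202) and MIR222HG, the host of a microRNA pair, from 117 and 88.3 to 44.4 and 30.2 (-1.45 ± 0.21, adjusted p = 0.001). ADCY8, an adenylate cyclase, fell by 1.32 (adjusted p = 0.0706 without NODAL replicate 2) and GCNT4, a glycosyltransferase, fell by 1.19 (up to 0.16 with 1 of the 4 libraries left out). The others named here were called without any one library.

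The pair of E7 libraries served as control for all 3 ligands, so responses against E7 are given side by side and differences are taken from direct tests. TGFb at 1.74 ng/mL gave 0 calls against E7 in limma, with 3771 genes at an unadjusted p under 0.05 and no other tool run. Activin A gave 882 increases (5.28%) and 793 decreases (4.74%). Those decreases included 10 of 29 ribosome assembly genes, 5 of 14 heat shock genes and 5 of 13 metallothionein and zinc genes, and none of these lists had an increase. LEFTY1 had log2 fold changes of 1.69 with NODAL, 2.83 with Activin A and -0.23 with TGFb, and MIXL1 of 1.67, 3.17 and 0.08. For HSPG2 the values were 2.15, 0.89 and 1.76, and for AC110079.1 they were 1.87, 0.82 and 1.51, so these genes were also higher than E7 with TGFb, though not called.

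**Figure D5:**
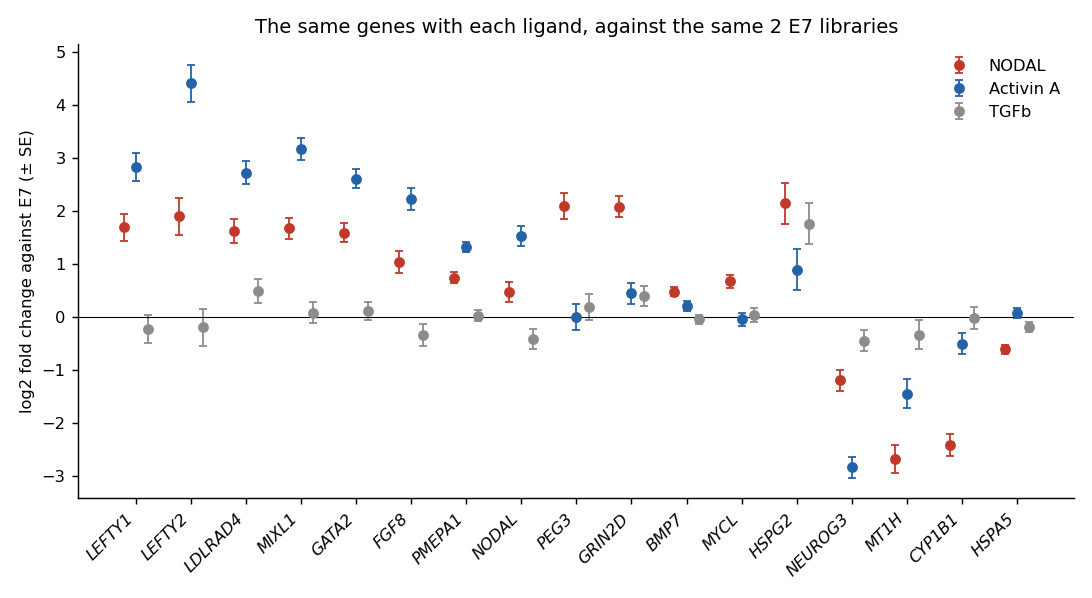
Log2 fold change against E7, with the standard error of the fit as bars, for 17 genes with NODAL (red), Activin A (blue) and TGFb (grey), all against the same 2 E7 libraries. LEFTY1, LEFTY2 and MIXL1 are highest with Activin A, PEG3 and GRIN2D with NODAL, CYP1B1 is lowest with NODAL, and HSPG2 is raised to like values with NODAL and TGFb.

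Directly against Activin A, NODAL gave 740 genes higher and 598 lower (4.43% and 3.58%, and 8.01% together). Of 17 listed TGFb, Activin and Nodal targets 8 were lower than with Activin A at the same dose by weight and none was higher. LEFTY2 had 535 and 442 reads with NODAL and 3253 and 2381 with Activin A (-2.52 ± 0.35, adjusted p = 0.00106), LEFTY1 had 1749 and 1691 against 4829 and 2993 (-1.14 ± 0.26, adjusted p = 0.0174), MIXL1 486 and 522 against 1513 and 1336 (-1.50 ± 0.21, adjusted p = 0.000911) and EOMES 15.8 and 12.3 against 108 and 123 (-2.96 ± 0.40, adjusted p = 0.000792). The kinase-binding membrane protein PAG1 (-3.45), CDH6 (-2.44), PDE4B (-2.19) and GADD45B (-2.13) were the other large differences in that direction. Higher with NODAL were INSM1, a neuroendocrine zinc-finger gene, with 128 and 96.1 reads against 14.1 and 9.42 (3.16 ± 0.40, adjusted p = 0.000562), DPP4 (2.46), SORBS2 (2.34), HHLA1 (2.14), AC022140.2 (2.77) and PEG3, with 132 and 125 against 23.5 and 36.7 (2.09 ± 0.24, adjusted p = 0.000311). CYP1B1 was lower with NODAL, 23.2 and 36.8 against 112 and 114 (-1.91 ± 0.21, adjusted p = 0.000161). Also lower with NODAL were 4 of 29 ribosome assembly genes, 2 of 14 heat shock genes and 3 of 13 metallothionein and zinc genes, with none higher. Limma called 306 or 305 genes without NODAL replicate 1 or 2 and 2062 or 4926 without Activin A replicate 1 or 2. LEFTY1 lost its call without either NODAL library or Activin A replicate 1 (adjusted p of up to 0.119), and AC022140.2 without NODAL replicate 1 (0.0555).

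Directly against TGFb, whose dose by weight was lower and whose means use no E7 library, NODAL gave 690 genes higher and 572 lower (4.13% and 3.42%, and 7.55% together). The same direction was called here for 516 of the 1780 genes that rose against E7 (29.0%) and 426 of the 1821 that fell (23.4%), in tests that share the NODAL libraries. Of the 17 listed targets 6 were higher with NODAL and 1 was lower, against 5 and 2 in the comparison with E7. LEFTY2 had 535 and 442 reads against 102 and 126 with TGFb (2.09 ± 0.35, adjusted p = 0.0053), LEFTY1 1749 and 1691 against 446 and 463 (1.92 ± 0.26, adjusted p = 0.0017) and NODAL 1106 and 1093 against 616 and 573 (0.89 ± 0.18, adjusted p = 0.0135). PEG3 (1.91), AL627309.8 (1.89), C1QL1 (1.99) and AL035071.1 (2.09) were the other large increases. CYP1B1, at 23.2 and 36.8 against 154 and 161 (-2.39 ± 0.21, adjusted p = 0.000145), MT1H (-2.34) and MT1G (-1.76) had the most negative values among called genes with a group mean of at least 100 reads, followed by COL12A1 (-1.66), MAP2 (-1.54) and LINC-ROR (-1.37). Of the 29 ribosome assembly genes 17 were lower and none higher, with a median of -0.42, whereas 0 of the 58 ribosomal protein genes were called and their median was -0.12. HSPG2 was not called (0.39, adjusted p = 0.565). Limma called 83 or 113 genes without NODAL replicate 1 or 2, 134 or 132 without TGFb replicate 1 or 2, and 3197 or 3205 without Activin A replicate 1 or 2. The calls of NODAL and COL12A1 were lost without any of the 4 libraries compared (adjusted p of up to 0.114 and 0.154), those of LEFTY2 and LINC-ROR without TGFb replicate 1 or NODAL replicate 1 (up to 0.0766 and 0.0789), and those of AL035071.1 and MAP2 in 11 and 10 of 16 fits.

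With 2DG present, the same addition of NODAL was measured in 4 other libraries. They do not enter the means of the contrast without 2DG but share its estimate of the spread. It raised 71 genes and lowered 35 (0.425% and 0.209%, and 0.634% together). Of the 71, 56 had also risen without 2DG (78.9%, and 3.15% of the 1780), and of the 35, 25 had also fallen (71.4%, and 1.37% of the 1821), with 0 called in opposite directions by limma. LEFTY1 had 20.9 and 30.4 reads with 2DG alone and 237 and 232 with NODAL and 2DG (3.17 ± 0.26, adjusted p = 5.3e-05). NODAL rose from 244 and 291 to 581 and 574 (1.11 ± 0.18, adjusted p = 0.0144), GATA2 from 56.0 and 68.5 to 136 and 184 (1.34 ± 0.17, adjusted p = 0.00354) and PEG3 from 46.5 and 43.5 to 139 and 137 (1.60 ± 0.24, adjusted p = 0.0115). CYP1B1 fell from 189 and 202 to 41.8 and 31.4 (-2.40 ± 0.21, adjusted p = 5.54e-05), next to -2.41 without 2DG, and MT1H from 114 and 153 to 42.7 and 38.7 (-1.68 ± 0.27, adjusted p = 0.013). Over all 1780 genes that rose without 2DG, 64.4% had a positive value with 2DG, against 51.6% of all genes, and the median went from 0.69 to 0.09. Over the 1821 that fell, 53.2% had a negative value against 48.4% of all genes, and the median went from -0.51 to -0.01.

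Several abundant genes that fell without 2DG were not called with it, which does not test a difference between the responses. Given below with its fragility, the direct test of that difference called 5 of 29 ribosome assembly genes and 3 of 14 heat shock genes. It called 1 of 22 unfolded protein response genes, 0 of 58 ribosomal protein genes and 1.87% of all genes. NPM1 had 43413 and 45598 reads with 2DG and 42074 and 43441 with NODAL and 2DG (-0.06, adjusted p = 0.832), HSPA8 41291 and 42863 against 47224 and 47496 (0.17, adjusted p = 0.413), and HSPA5 24248 and 25888 against 20272 and 19992 (-0.32, adjusted p = 0.138). None of the 29 ribosome assembly genes or 14 heat shock genes was called with 2DG by limma as fitted, and with the length trend subtracted 4 ribosome assembly genes were called lower and 1 heat shock gene higher. The median of the 58 ribosomal protein genes was 0.20 with 2DG, with 57 values positive, and the response with 2DG had a rank correlation of -0.34 with transcript length. NFASC (0.46) and GRIN2D (0.32) were not called either. Limma called 11 to 16 genes with 2DG when 1 of its own 4 libraries was left out, and 1767 or 1755 without Activin A replicate 1 or 2. The calls of NODAL, PEG3 and MT1H with 2DG were lost without any of those 4 libraries (adjusted p of up to 0.158, 0.148 and 0.18) and that of GATA2 without 2DG replicate 1 or NODAL and 2DG replicate 2 (up to 0.0804), while LEFTY1 and CYP1B1 were called without any one library.

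The difference between the responses with and without 2DG was tested as an interaction in the same model. It was called for 313 genes (1.87%), 165 with a more positive response when 2DG was present (0.987%) and 148 with a more negative one (0.885%). Of the genes that changed without 2DG, 138 that rose and 163 that fell were among them, each with a response nearer 0 or opposite under 2DG, in a test that shares the 4 libraries that chose them. NFASC had an interaction of -1.73 ± 0.32 (adjusted p = 0.0383) and GRIN2D one of -1.76 ± 0.27 (adjusted p = 0.0383). For MT1G it was 1.14 ± 0.24 (adjusted p = 0.0425), with responses of -2.06 without 2DG and -0.92 with it. LEFTY1 had a larger response with 2DG, but the interaction of 1.48 missed the threshold (adjusted p = 0.0534). These calls were fragile: limma called 0 genes with a replicate block and 0 in 11 of the 16 fits that left out 1 library, E7 replicate 2 and both NODAL replicates included, against 4341 genes at an unadjusted p under 0.05. edgeR called 287 and DESeq2 called 1684.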

How the data were processed

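RNA-seq of 16 libraries from the H1 line, 2 in each of 8 groups, was compared at 24 h. The deposited table holds normalised read counts per gene (a signal scale): the authors divided counts by a size factor per library, as the values show. Trimmomatic 0.36, STAR, featureCounts 1.5.3, DESeq2 1.26.0 and hg38 are named per the submitters' processing notes, and their settings, the annotation release and the strand setting are not given in the sources used here. Reads from overlapping or antisense genes may therefore be mixed. Whole reads were recovered for 100% of values (tolerance 1e-06).

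Genes were tested where 2 or more libraries reached a value of 10. limma 3.58.1 (R 4.3.3) was run with a trend on log2(value + 1), with 8 group means over all 16 libraries and Benjamini-Hochberg adjustment within each contrast. Fold changes on this scale understate low genes. edgeR 4.0.16 (quasi-likelihood) and DESeq2 1.42.0 were run on the recovered reads as alternatives. Replicate numbers did not pair the samples: 3 of 28 pairs of groups had a correlation of same-numbered deviations above 0.1, and E7 with E7+NODAL had -0.08. Transcript length came from GENCODE 29, matched by symbol. On simulated data for this contrast (16439 genes), 60 of 100 changes of 1 log2 and 6 of 100 changes of 0.5 log2 were recovered. In that run 3 unchanged genes were called. The simulated reads varied independently by gene, with few changed genes and no length trend between replicates. These rates therefore do not carry over to the real libraries.

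Genes named were the 12 largest called changes each way with a higher group mean of at least 100, up to 5 called members of each list, the genes of the Nodal pathway and pluripotency, and the most abundant called genes. A few genes that the rule names are not reported here. The members and lists were chosen with earlier results of these data known. Promoter windows are RefSeq's, GRCh38.p14. Leaving out 2 choices together was added after seeing the data.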

Additional observations from a re-analysis of the deposited data

Results flagged for a closer look

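The response to NODAL differed with and without 2DG for 313 genes by the interaction test in limma. That count fell to 0 with a replicate block, and the calls were fragile to single libraries, as given above. Genes with a mean of at least 100 reads in some group were considered. Among their most negative interactions were -1.83 for ZNF469, -1.76 for GRIN2D, -1.73 for NFASC, -1.66 for SDK2 and -1.57 for SLX4. ZNF469, a zinc-finger gene, had 26.8 and 20.3 normalised reads in E7 and 54.9 and 57.5 with NODAL, and 117 and 104 with 2DG and 76.3 and 69.1 with both. In ZNF469 the NODAL libraries were above their controls without 2DG and below them with 2DG. The most positive were 1.46 for SNRPGP10, 1.39 for DLEU2, 1.32 for HMGB1P10, 1.18 for TIMM8B, 1.15 for TMEM126A and 1.14 for MT1G. TIMM8B, a small chaperone of mitochondrial import, had 1397 and 1665 reads in E7 and 985 and 762 with NODAL, and 872 and 920 with 2DG and 1170 and 1133 with both. SNRPGP10 and HMGB1P10 are pseudogenes of expressed genes, so their reads may belong to the parent genes. Rank correlations with transcript length were 0.24 for the response without 2DG and -0.34 for the response with it. With the length trend subtracted, the interaction was called for 1485 genes, and the 11 genes named here were among them with the same direction.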

How the results depend on the processing

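The count of genes changed by NODAL, 3601, lay within 1.5 times under TMM, equal totals, quantile normalization, other pseudocounts and filters, robust empirical Bayes, length subtraction, edgeR (3510) and DESeq2 (3608). It was 6479 without the 4 Activin A libraries and 516 at an absolute log2 change of at least 1. Of the settings chosen after seeing the data, it was 7019 without the Activin A libraries and E7 replicate 1, and 2399 with length subtracted and without E7 replicate 2. Against Activin A (1338 as reported) the count was 0 with only those 4 libraries, 2509 with length subtracted, 2357 with length and block, and 370 at a log2 change of at least 1. Against TGFb (1262) it was 5792 with only those libraries, 4233 without Activin A, 2582 with length subtracted, 2337 with the block too, and 269 at a change of at least 1. With 2DG (106) these settings gave 3375, 2952, 439, 373 and 57, and DESeq2 gave 278. The interaction (313) gave 3940, 4800, 1485, 1244 and 80, with 847 at a mean of at least 50 and 1684 by DESeq2. With the replicate block the counts were 3326, 1132, 956, 81 and, for the interaction, 0, although the numbers did not pair the samples. Leaving out 1 library gave 829 to 5678 genes for NODAL, 305 to 4926 against Activin A, 83 to 3205 against TGFb, 11 to 1767 with 2DG and 0 to 3890 for the interaction. Quantile normalization turned POU5F1 to 0.0733, NANOG to 0.0304 and SKIL to 0.0807, and equal totals turned SKIL to 0.0330; SMAD7 was -0.0459 with length subtracted, with or without the block, and -0.134 with length subtracted and without E7 replicate 1. None of these 4 genes was called as reported. Over the genes named, 5005 recomputed values kept direction and side of the threshold, 444 lost the call, 81 gained it and 7 reversed. Depth limits genes with few reads. With 2 libraries a group, changes of 0.5 log2 were mostly missed on simulated data, which had few changed genes and no length trend between replicates. The cause of these movements was not tested.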
